A study of Arabidopsis halleri with 12 samples.

Results

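Expansins and the TRICHOME BIREFRINGENCE-LIKE (TBL) family of cell wall proteins were measured in roots of Arabidopsis halleri, a zinc hyperaccumulator. The genes were taken by symbol from the annotation of the array's probe sets, which names them after Arabidopsis thaliana. They comprised every gene whose only annotated probe set target began with EXPA, EXPB, EXLA, EXLB or TBL and a number, except the root hair expansins EXPA7 and EXPA18. This gave 38 genes of 13350 with a probe set annotated to them alone, namely 16 expansins and 22 TBL genes, each with 1 probe set. That of TBL32 is of a type (_s_at) that can match more than 1 transcript, so its signal may not be of TBL32 alone. The array held 22746 probe sets without controls.

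The arrays formed 4 groups of 3. Plants of the line AhNAS2-RNAi-1-2, in which RNA interference suppresses the nicotianamine synthase gene AhNAS2, were grown with 10 µM zinc added to the medium or in control Hoagland medium, and Langelsheim wild-type (WT) plants were grown in the same media. All plants were vegetatively propagated clones in hydroponic culture, aged 5 weeks, each array carried root RNA pooled from 3 plants, and 3 independent experiments were done. Only 1 RNAi line was profiled, so suppression of AhNAS2 and any other difference between that line and WT cannot be told apart. The labels name neither the promoter of the RNAi construct nor the experiment behind each replicate number. The p-values cover the spread between pools, and whether that spread includes differences between experiments is not known. In such whole-root pools, fewer cells of a type and less RNA per cell cannot be told apart.

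Expansins are wall proteins that loosen contacts between cellulose and other wall polysaccharides in acid conditions without cutting them, and so allow a turgid cell to grow. The alpha (EXPA) and beta (EXPB) groups have this activity, whereas none has been shown for the expansin-like groups EXLA and EXLB. TBL proteins are mostly Golgi enzymes that add acetyl groups to wall polysaccharides. In A. thaliana TBL23, TBL25 and TBL26 acetylate mannan, TBL28, TBL30, TBL32, TBL34 and TBL35 acetylate xylan, and TBL38 has been described as a pectin acetylesterase of the seed coat.

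The alpha-expansins measured were EXPA4, EXPA8, EXPA9, EXPA15, EXPA16, EXPA20, EXPA21 and EXPA24. The beta-expansins were EXPB1, EXPB2, EXPB3 and EXPB5, and the expansin-like genes EXLA1, EXLA2, EXLA3 and EXLB1. The TBL genes were TBL15, TBL16, TBL18, TBL19, TBL20, TBL21, TBL23, TBL25, TBL26, TBL28, TBL30, TBL32, TBL34, TBL35, TBL36, TBL37, TBL38, TBL39, TBL41, TBL42, TBL43 and TBL45. All values below are the deposited log2 signals or differences between them. A signal also depends on how well the A. halleri transcript matches the A. thaliana probes, so signals of different genes do not compare their transcript levels.

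In 19 of the 38 genes the signal lay above the array median (5.34 to 5.38) on all 12 arrays, and in 13 it lay below the median on all 12. Signals far above the median were found for TBL36, with 10.1 to 10.7 over the 12 arrays, for EXPA4, with 9.42 to 10.1, and for EXPA15, with 8.82 to 9.61. Signals far below it were found for TBL21, with 3.36 to 3.65, TBL15, with 3.62 to 4.03, and TBL20, with 3.71 to 4.07. Among the 13 genes below the median were the expansins EXPA16, EXPA21, EXPA24, EXPB2, EXPB5 and EXLA3 and the xylan acetyltransferase gene TBL30. Signal over background was not analysed here, and a difference in these 13 genes may go unseen.

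**Figure D1:**
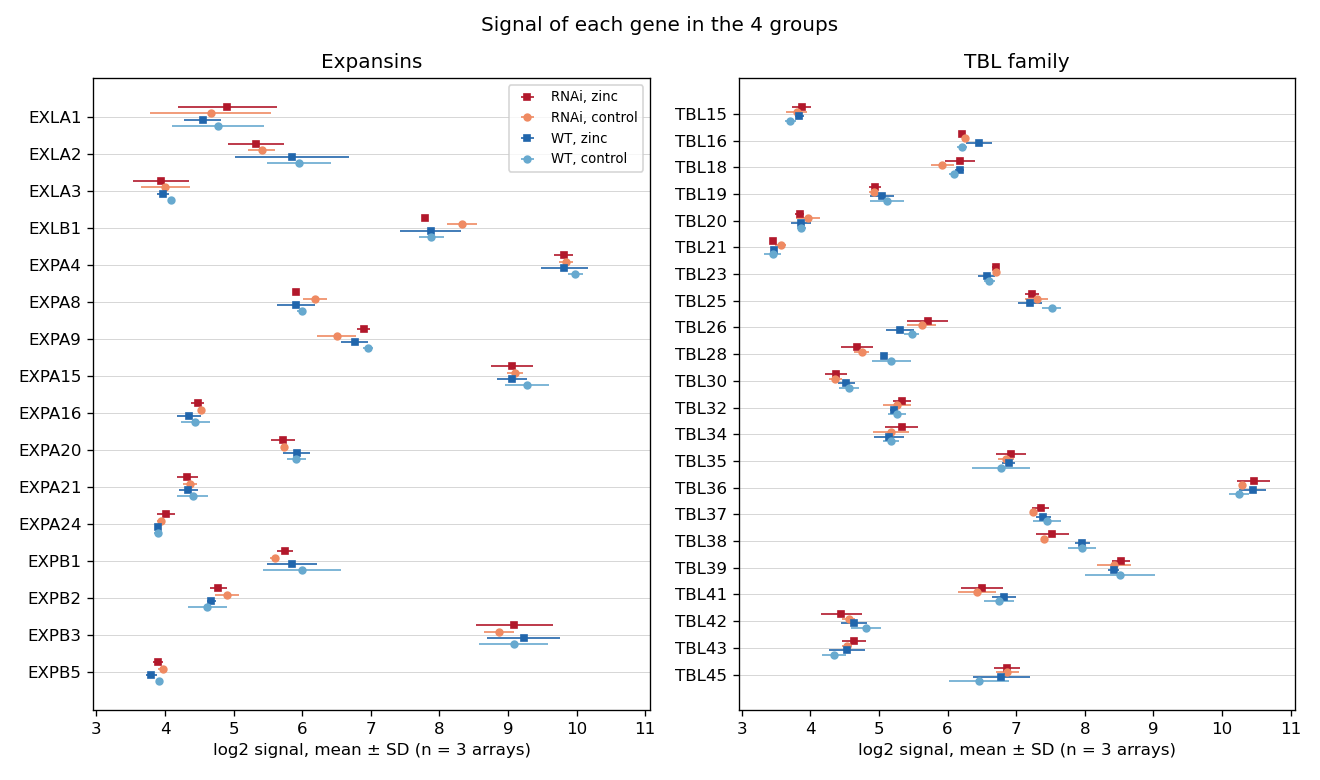
Mean log2 signal (horizontal axis) of each expansin (left) and TBL gene (right) in the 4 groups, with bars of 1 SD over 3 arrays. In 10 of the 38 genes the 4 group means span no more than the pooled SD, TBL38 and TBL28 lie lower in both RNAi groups, and EXLA1, EXLA2 and EXPB3 have the widest bars.

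Array medians differed by less than 0.05, arrays correlated with r of 0.983 to 0.996, and no probe set was named after a nicotianamine synthase, so that the RNAi labels were not checked against their target. The fixed lists of root tissue markers (0 of 11 named) and shoot photosynthesis markers (0 of 10) had no named probe set. Of the fixed root hair markers 2 of 8 had a named probe set, EXPA7 and EXPA18, with mean signals of 8.03 and 6.99. Of the nuclear photosynthesis genes, 8 chosen after the annotation was seen had medians of 5.32 on the first RNAi zinc array, 5.37 on the first WT zinc array and 5.34 on the second WT control array, against 4.89 to 5.10 on the other 9. These 3 arrays also had the highest array medians, 5.37 to 5.38, against 5.34 to 5.36 on the other 9. The 3′ minus 5′ difference of the actin control, a sign of RNA integrity, was 1.94 to 2.15 in RNAi and 2.01 to 2.20 in WT, and that of the GAPDH control 0.94 to 1.24 in RNAi and 1.08 to 1.17 in WT.

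The first question was which wall genes differed with suppression of AhNAS2. One TBL gene, TBL38, was lower in the RNAi line over both media, and no expansin passed the threshold in either direction. TBL28, a xylan acetyltransferase gene, had lower values in RNAi on every array without passing. The other 36 genes had smaller or more variable differences.

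TBL38 (Entrez Gene 839779) had signals of 7.45, 7.79 and 7.35 in RNAi with zinc and 7.40, 7.46 and 7.37 in RNAi in control medium, against 8.09, 7.93 and 7.88 in WT with zinc and 7.75, 8.16 and 7.95 in WT in control medium. Within each medium all RNAi arrays lay below all WT arrays, and across media 1 RNAi zinc array (7.79) lay above 1 WT control array (7.75). Over both media TBL38 averaged 7.47 ± 0.17 in RNAi and 7.96 ± 0.15 in WT (SD, n = 6 each), which is 1.41-fold lower in RNAi. The log2 fold change was -0.49 (SE 0.090, 95% interval -0.69 to -0.29, limma adjusted p = 0.0290). Within control medium it was -0.54 (SE 0.13, limma adjusted p = 0.182) and with zinc -0.44 (SE 0.13, limma adjusted p = 0.370), neither of which passed.

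The call of TBL38 held in all 5 other settings of the fit to the 12 arrays that were run over both media and ended when any of 9 of the 12 arrays was left out. These were WT control replicates 2 and 3, WT zinc replicates 1 and 2, RNAi control replicates 1, 2 and 3 and RNAi zinc replicates 1 and 3. Without them the limma adjusted p lay between 0.0511 (without WT control replicate 2) and 0.0853 (without WT zinc replicate 1). The difference itself ran from -0.56 to -0.44 over the left-out arrays. Without the 3 arrays of high photosynthesis median together, a setting chosen after the data were seen, TBL38 was at -0.39 with a limma adjusted p of 0.177. The mean signal of the root hair expansins EXPA7 and EXPA18 was 7.51 in RNAi and 7.50 in WT.

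TBL28 had 4.66, 4.93 and 4.46 in RNAi with zinc and 4.85, 4.64 and 4.74 in RNAi in control medium, against 5.08, 5.08 and 5.08 in WT with zinc and 5.49, 5.12 and 4.94 in WT in control medium. The 6 RNAi arrays all lay below the 6 WT arrays, a separation that 1 of the 38 genes and 1.7% of all probe sets showed in either direction. The log2 fold change was -0.42 (SE 0.10, 95% interval -0.63 to -0.20) and did not pass (limma adjusted p = 0.0787). The signal of TBL28 lay above the array median on 1 of 12 arrays.

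In count, 1 of 38 genes (2.63%) passed in the comparison over both media, against 1.05% of all probe sets, and 1 gene is too few to set against that share. The gene that passed was lower in RNAi, as were 0.651% of all probe sets. At an unadjusted p under 0.05 there were 6 of the 38 genes (15.8%), 1 higher and 5 lower, against 13.3% of all probe sets, 6.21% higher and 7.05% lower. Differences below 0 were found in 19 of 38 genes and in 50.5% of probe sets. The median difference was -0.008 over the 38 genes, -0.040 over the expansins and 0.022 over the TBL genes, beside -0.001 over all probe sets.

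**Figure D2:**
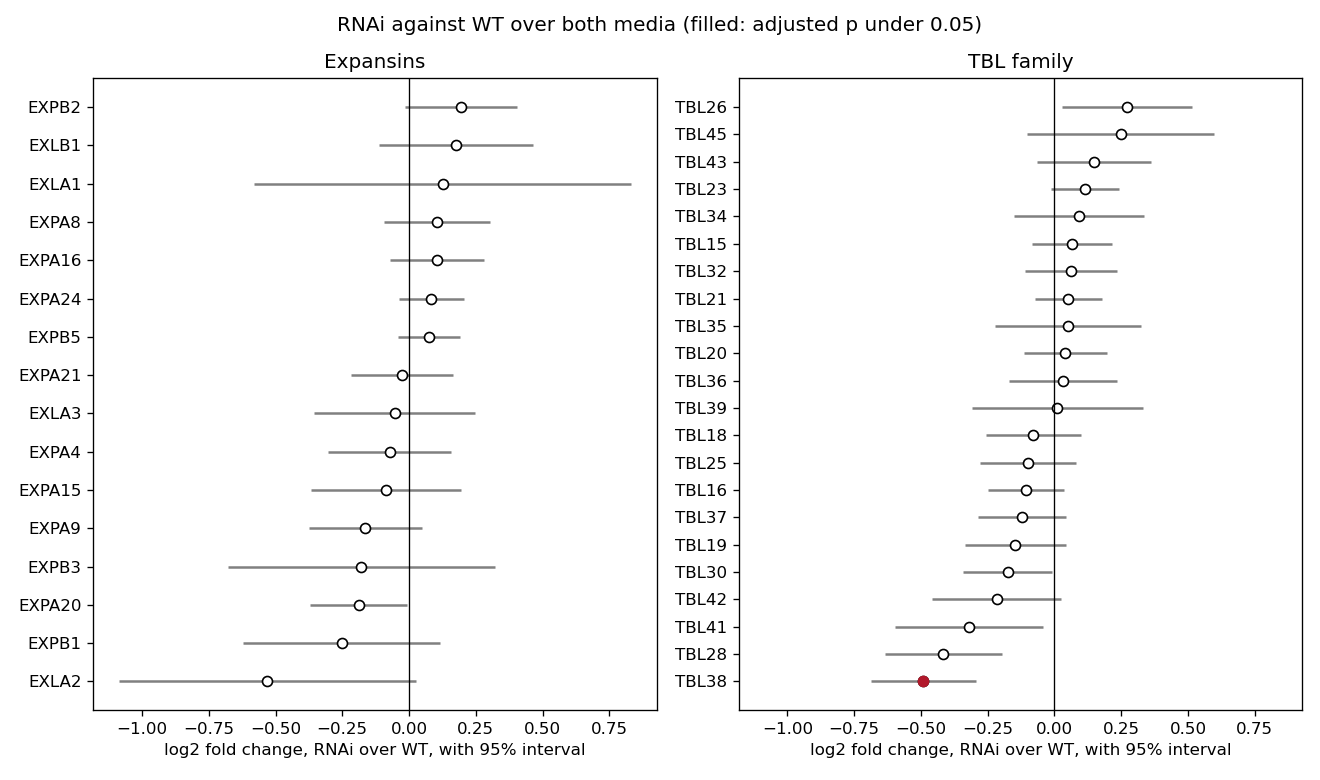
Log2 fold change of RNAi over WT over both media (horizontal axis) for each expansin (left) and TBL gene (right), ordered by value, with 95% intervals from limma over 12 arrays. TBL38 at -0.49 is the filled point past the adjusted threshold, and TBL28 at -0.42 and EXLA2 at -0.53 are open because they did not pass.

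Of the expansins, EXLA2 had the lowest value over both media. Its signals were 5.80, 5.16 and 5.04 in RNAi with zinc and 5.37, 5.24 and 5.63 in RNAi in control medium, against 6.73, 5.74 and 5.08 in WT with zinc and 5.59, 5.80 and 6.48 in WT in control medium. The groups overlapped, with WT arrays spread over more than 1 unit. The log2 fold change was -0.53 (SE 0.25, 95% interval -1.09 to 0.025, limma adjusted p = 0.402). It was -0.31 without WT zinc replicate 1 and -0.72 without WT zinc replicate 3.

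The largest positive differences over both media did not pass either. TBL26, of mannan acetylation, had 5.38, 5.97 and 5.78 in RNAi with zinc and 5.46, 5.55 and 5.86 in RNAi in control medium, against 5.09, 5.33 and 5.51 in WT with zinc and 5.36, 5.58 and 5.49 in WT in control medium. The RNAi and WT arrays overlapped (log2 fold change 0.27, SE 0.11, limma adjusted p = 0.310). TBL45 was at 0.25 (SE 0.16, limma adjusted p = 0.558), or 0.15 without WT zinc replicate 3, and the beta-expansin EXPB2 at 0.19 (SE 0.096, limma adjusted p = 0.419), or 0.12 without WT control replicate 3.

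Estimates for genes of the same proposed substrate differed in sign, but many were small beside their error. Among the xylan acetyltransferase genes TBL28 and TBL30 had negative differences over both media (-0.42 and -0.17), while TBL32, TBL34 and TBL35 were at 0.06, 0.09 and 0.05. Among the mannan group TBL25 was at -0.10, TBL23 at 0.12 and TBL26 at 0.27. None of these 8 genes passed the limma threshold.

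Within control medium 0 of the 38 genes passed with limma, beside 0.022% of all probe sets (5, or 3 with the replicate number as a block). At an unadjusted p under 0.05 there were 4 genes (10.5%) against 8.76% of probe sets, namely TBL38, EXPA9, TBL28 and EXLB1. The alpha-expansin EXPA9 had 6.83, 6.38 and 6.30 in RNAi in control medium, against 7.00, 7.00 and 6.88 in WT in control medium. Its groups did not overlap, and the log2 fold change of -0.46 (SE 0.14) did not pass (limma adjusted p = 0.333). EXLA2, at -0.54 (SE 0.36), was level with TBL38 but overlapped between the lines, and was -0.28 without WT control replicate 3. TBL45 at 0.41 (SE 0.23) and EXPB2 at 0.28 (SE 0.14) followed EXLB1 among the positive differences. Without single WT control arrays TBL45 ran from 0.26 to 0.66 and EXPB2 from 0.13 to 0.41.

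EXLB1, the only expansin-like B gene measured, had 8.47, 8.43 and 8.07 in RNAi in control medium, against 8.09, 7.74 and 7.82 in WT in control medium. The lowest RNAi array and the highest WT array overlapped by a small margin (log2 fold change 0.44, SE 0.19, limma adjusted p = 0.535). The groups were apart in 4 of the 38 genes (10.5%), all lower in RNAi, against 13.9% of all probe sets in either direction and 7.09% lower. These were TBL38, TBL28, EXPA9 and EXPA20, and EXPA20 differed by -0.18.

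With zinc added 0 genes passed with limma, beside 0.0528% of all probe sets, and 4 had an unadjusted p under 0.05 (10.5%, against 7.72%). These 4 were TBL genes: TBL38, TBL28, TBL26 and TBL16. TBL16 had 6.19, 6.20 and 6.23 in RNAi with zinc, against 6.56, 6.58 and 6.24 in WT with zinc. The third WT array lay just above the RNAi arrays and the others well above them (log2 fold change -0.25, SE 0.092, limma adjusted p = 0.523). The lowest difference with zinc was that of EXLA2, at -0.52 (SE 0.36, limma adjusted p = 0.824), which was -0.079 without WT zinc replicate 1. TBL38 at -0.44 and TBL28 at -0.40 came next. The highest were TBL26 at 0.40 (SE 0.16), EXLA1 at 0.36 (SE 0.46) and TBL34 at 0.19 (SE 0.16), the last of which was 0.079 without RNAi zinc replicate 1. The groups did not overlap in 4 genes (10.5%), against 12.7% of probe sets, and TBL23, at 0.13, was the only one of them that was higher in RNAi.

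The line difference had the same sign in both media, which were measured on separate arrays, in 27 of the 38 genes (71.1%), against 63% of all probe sets. RNAi and WT arrays were apart within each medium, in the same direction, in 2 genes, TBL38 and TBL28, both lower in RNAi. This held for 5.26% of the 38 genes and for 2.87% of all probe sets.

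**Figure D3:**
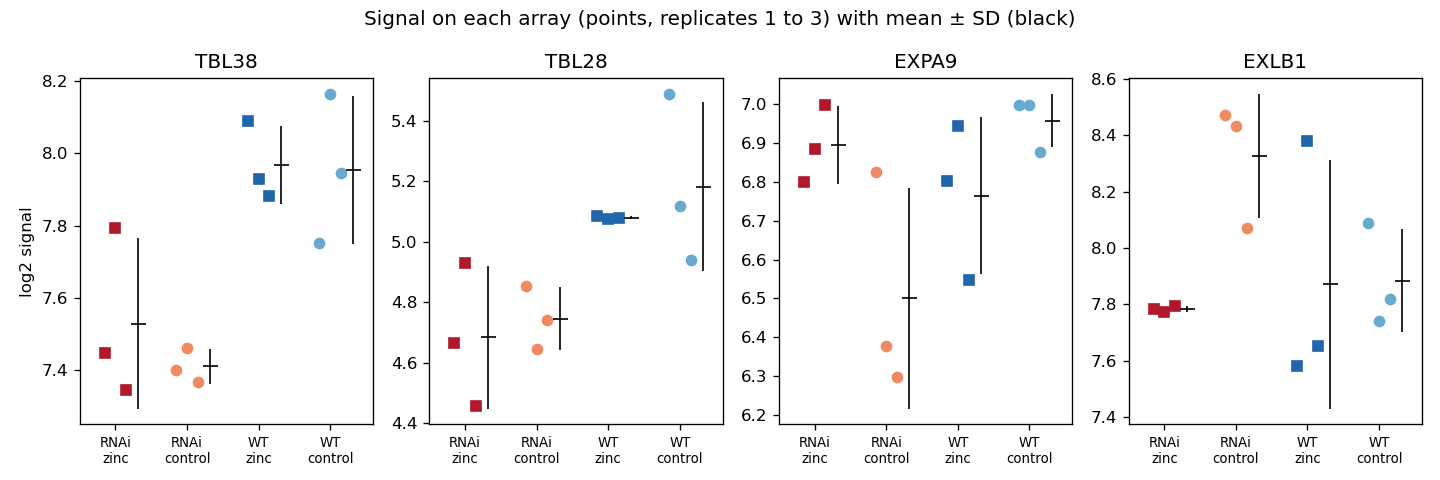
Log2 signal (vertical axis, a separate scale for each gene) of TBL38, TBL28, EXPA9 and EXLB1 on each of the 12 arrays, with the mean and 1 SD of each group in black. TBL38 and TBL28 are lower in both RNAi groups, while EXPA9 is low and EXLB1 high in RNAi in control medium.

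The second question was how the wall genes of each line responded to added zinc. Not 1 of the 38 genes rose or fell past the threshold in either line or over both lines, as was the case for every probe set on the array (0% called with limma in each comparison). The differences were small. In WT they ran from -0.31 to 0.33, in RNAi from -0.54 to 0.39 and over both lines from -0.28 to 0.18.

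In WT the lowest value was that of TBL25, of mannan acetylation, with 7.04, 7.19 and 7.39 in WT with zinc and 7.44, 7.67 and 7.44 in WT in control medium. Its zinc arrays lay below its control arrays, the highest zinc array by a small margin (log2 fold change -0.31, SE 0.12, limma adjusted p = 0.972). EXLA1 and EXPA15 followed at -0.22 each (SE 0.46 and 0.18). The highest were TBL45 at 0.33 (SE 0.23), TBL16 at 0.25 (SE 0.092) and TBL36 at 0.21 (SE 0.13), each with a limma adjusted p of 0.972. Single arrays weighed on several of these. EXPA15 was -0.059 without WT control replicate 2, TBL45 was 0.11 without WT zinc replicate 1, and TBL36 ran from 0.12 to 0.31 over the left-out arrays. At an unadjusted p under 0.05 there were 2 genes (5.26%), TBL25 and TBL16, against 5.04% of all probe sets. Besides TBL25 only TBL15 had groups that did not overlap, and it was higher with zinc (log2 fold change 0.13, SE 0.097, limma adjusted p = 0.975). No share of all probe sets is given for groups apart in this comparison.

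In RNAi the lowest value was that of EXLB1, with 7.78, 7.77 and 7.79 in RNAi with zinc and 8.47, 8.43 and 8.07 in RNAi in control medium. All zinc arrays lay below all control arrays (log2 fold change -0.54, SE 0.19, 95% interval -0.95 to -0.13), without passing (limma adjusted p = 0.9996). EXPA8 was also apart, with 5.94, 5.87 and 5.93 in RNAi with zinc and 6.36, 6.21 and 6.01 in RNAi in control medium (log2 fold change -0.28, SE 0.13). These 2 expansins were the only genes of the 38 (5.26%) whose groups did not overlap, against 10% of all probe sets.

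EXPA9 had the highest value in RNAi, with 6.80, 6.88 and 7.00 in RNAi with zinc and 6.83, 6.38 and 6.30 in RNAi in control medium. The first control array lay among the zinc arrays (log2 fold change 0.39, SE 0.14, limma adjusted p = 0.9996). TBL18 was at 0.26 (SE 0.12) and EXLA1 at 0.24 (SE 0.46), and the third lowest was TBL20 at -0.12 (SE 0.10). At an unadjusted p under 0.05 there were 3 genes (7.89%), EXLB1, EXPA9 and TBL18, against 4.52% of probe sets.

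Over both lines the lowest values were EXLB1 at -0.28 (SE 0.13), TBL25 at -0.19 (SE 0.082) and EXPA8 at -0.18 (SE 0.091), and the highest EXPB3 at 0.18 (SE 0.23), TBL36 at 0.18 (SE 0.093) and TBL18 at 0.17 (SE 0.082). The smallest limma adjusted p among them was 0.629. EXPB3 was 0.029 without RNAi zinc replicate 1 and 0.33 without WT control replicate 2. At an unadjusted p under 0.05 there was 1 gene (2.63%), TBL25, against 7.62% of all probe sets. The 95% interval lay within ±1 on the log2 scale for all 38 genes and within ±0.5 for 33 of them. Within a line 37 genes were within ±1 and 27 within ±0.5.

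The zinc difference had the same sign in both lines, again on separate arrays, in 22 of 38 genes (57.9%), against 58.4% of all probe sets. Other measures also differed in mean between the media. Hybridization spike-ins, which hold no plant RNA, averaged 9.83 to 10.08 on zinc arrays and 10.14 to 10.45 on control arrays, without overlap, while EXPA7 and EXPA18, which did not pass, averaged 7.27 on zinc arrays and 7.74 on control arrays, with overlap. Their part in these zinc differences was not tested.

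**Figure D4:**
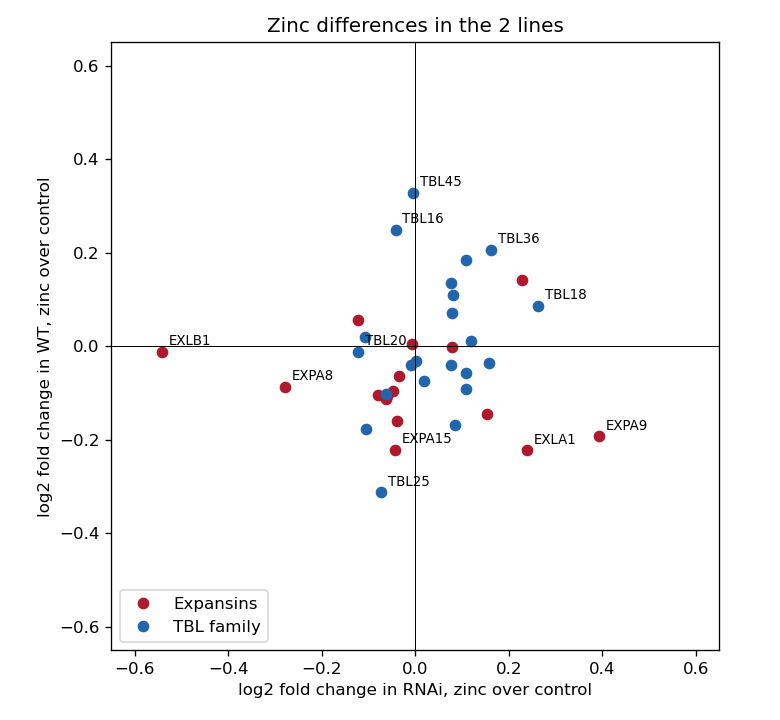
Log2 fold change of added zinc over control in RNAi (horizontal axis) and in WT (vertical axis) for the 16 expansins and 22 TBL genes, with the 3 highest and 3 lowest of each line named. EXLB1 at -0.54 and EXPA9 at 0.39 in RNAi lie farthest from 0, and no point passed the limma threshold in either line.

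The third question was whether the zinc response depended on the line. It did so past the threshold for 0 of 38 genes (0% of all probe sets), and 2 genes (5.26%) had an unadjusted p under 0.05, against 2.18% of probe sets. EXPA9 had the highest interaction, 0.59 (SE 0.20, 95% interval 0.16 to 1.01, limma adjusted p = 0.9999). Its difference of zinc and control was 0.39 in RNAi and -0.19 in WT. EXLB1 had the lowest, -0.53 (SE 0.26, 95% interval -1.11 to 0.048), with differences of -0.54 in RNAi and -0.013 in WT.

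TBL16 was the other gene under 0.05, with an interaction of -0.29 (SE 0.13). It was -0.042 in RNAi and 0.25 in WT. EXLA1 was at 0.46 (SE 0.65), EXPB1 at 0.30 (SE 0.34) and TBL45 at -0.33 (SE 0.32). The value of EXPB1 rested on WT control replicate 2 and was -0.028 without it, and that of EXLA1 was 0.078 without the first RNAi zinc array.

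The pooled SD within groups was 0.18 in the median of the 38 genes, 0.19 in the expansins and 0.16 in the TBL genes, beside 0.14 in all probe sets. It was over 0.25 in 7 of 16 expansins (43.8%) and 3 of 22 TBL genes (13.6%), against 11.5% of all probe sets. No test of this difference was made.

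EXLA1, with an SD of 0.67, had 5.67, 4.24 and 4.81 in RNAi with zinc, 3.91, 4.45 and 5.64 in RNAi in control medium, 4.54, 4.82 and 4.29 in WT with zinc and 4.65, 4.17 and 5.49 in WT in control medium. Single arrays near 5.6 stood out in 3 of the 4 groups. Leaving out some of these arrays, or the low first RNAi control array (3.91), turned its sign. Its line difference with zinc, 0.36, was -0.027 without RNAi zinc replicate 1. Its zinc difference in WT was 0.14 without WT control replicate 3, and in RNAi -0.14 without RNAi zinc replicate 1 or RNAi control replicate 1.

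The beta-expansin EXPB3 (SD 0.47) had 9.71, 8.94 and 8.62 in RNAi with zinc, 8.74, 9.12 and 8.74 in RNAi in control medium, 9.80, 9.12 and 8.77 in WT with zinc and 8.71, 9.66 and 8.89 in WT in control medium. The 3 highest arrays were the first of both zinc groups and the second WT control array. These are the arrays of high photosynthesis median named above, and the part of that difference in these genes was not tested. EXPA15 and TBL45 were each above their group means on all 3, by 0.20 to 0.35 and by 0.21 to 0.49. EXPB1 was above by 0.082 on the first RNAi zinc array, 0.35 on the first WT zinc array and 0.65 on the second WT control array. It reached 6.65 on the second WT control array, against 5.59 and 5.75 on the others of its group. TBL39 was also above its group means on all 3, by 0.058 to 0.59. Other variable genes were not. In the order first RNAi zinc, first WT zinc and second WT control array, EXLB1 deviated by 0.0013, -0.29 and -0.14. EXLA1 deviated by 0.77, -0.014 and -0.60 and EXLA2 by 0.47, 0.88 and -0.15. EXLA3 deviated by 0.45, -0.012 and 0.025, and TBL41 by -0.010, -0.0069 and 0.10. No share of all probe sets is given for comparison. TBL45 had 7.08, 6.80 and 6.73 in RNAi with zinc, 6.92, 7.00 and 6.69 in RNAi in control medium, 7.22, 6.76 and 6.38 in WT with zinc and 6.14, 6.95 and 6.28 in WT in control medium.

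**Figure D5:**
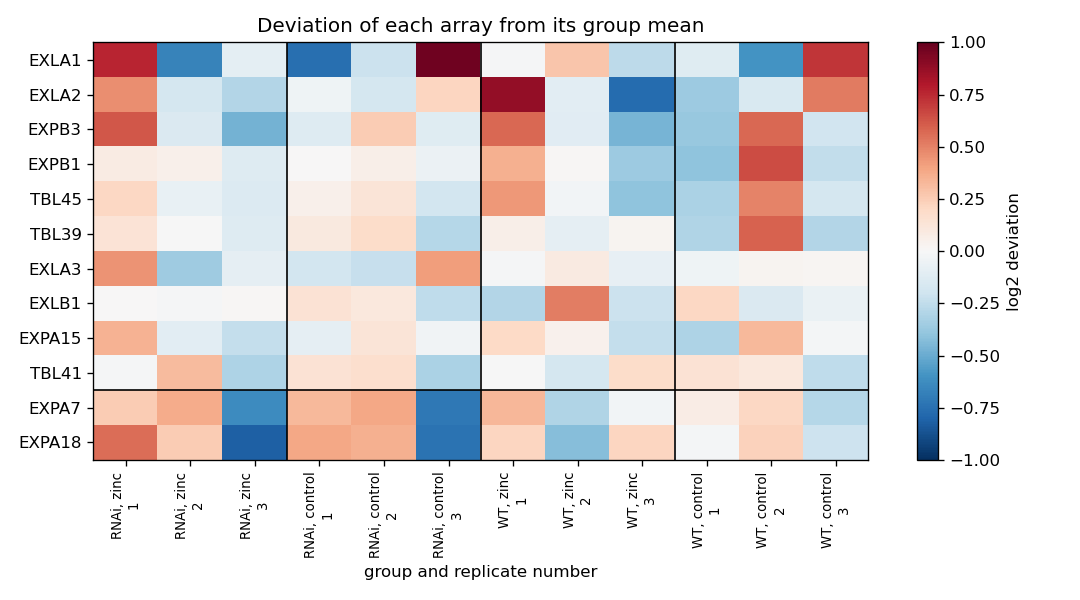
Deviation of each array from its group mean (colour, log2 units, clipped at 1 in either direction) for the 10 genes with a pooled SD over 0.25, and below the line for EXPA7 and EXPA18. EXPB3, TBL45 and EXPA15 are high on the first RNAi zinc, first WT zinc and second WT control arrays and EXPB1 on the last of these and the first WT zinc array, while EXPA7 and EXPA18 are lowest on the third arrays of both RNAi groups.

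EXPA7 and EXPA18 themselves deviated together (r = 0.945 over 12 arrays with group means removed), and their mean deviation was -0.72 on the third array of each RNAi group. Among the 38 genes TBL34 followed it most closely (r = 0.915, Spearman rho 0.867, exact permutation p = 0.0015 for each, two-sided, over 1296 exchanges within groups). TBL41, in second place, had r = 0.847 (exact permutation p = 0.012) and rho = 0.650 (exact permutation p = 0.096). Adjusted over all probe sets these permutation p-values were 0.0944 for the r of TBL34, 0.103 for its rho, 0.158 for the r of TBL41 and 0.402 for its rho, and no probe set passed. The smallest exact permutation p that 1296 exchanges allow is 0.00077. The adjusted test therefore left little room for any probe set to pass. Without the third RNAi arrays of both media r was 0.838 for TBL34 and 0.689 for TBL41. An r of at least 0.7 was reached by 2 of 38 genes, against 6.49% of all probe sets, and by 0 of the 16 expansins. The expansin EXPA24 lay just under that bound (r = 0.697, exact permutation p = 0.0749). Without the third RNAi arrays of both media r was 0.379 for EXPA24. The signal of EXPA24 lay below the array median on all 12 arrays. While r was above 0 in 30 of the 38 genes, no share of all probe sets is given for that count, and nothing is drawn from it. TBL39 had r = 0.611 (exact permutation p = 0.0023, adjusted 0.101) and rho = 0.748 (exact permutation p = 0.0015, adjusted 0.103). The expansin EXPB2 had r = 0.638 (exact permutation p = 0.030, adjusted 0.2355). With TBL34 and TBL41 these were the 4 of 38 genes whose r had an unadjusted permutation p under 0.05. No share of all probe sets is given at that cut.

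Other wall genes of the fixed lists were little represented. Of the 54 genes in 6 lists, 7 had a named probe set, and none of the plasma membrane proton pumps (0 of 11), which acidify the wall, was among them. AXY9 and TBR, which act in wall acetylation outside the numbered TBL genes, differed between RNAi and WT by -0.03 (SE 0.072) and 0.03 (SE 0.079) over both media. The xylan synthesis genes IRX15 and IRX15L were at 0.006 and -0.19, the mannan synthase gene CSLA3 at -0.04, the xyloglucan synthase gene CSLC4 at -0.03 and COB, of cellulose orientation, at -0.14. All 7 had a limma adjusted p of at least 0.354 in that comparison.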

How the data were processed

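Biotin-labelled root RNA was hybridized to 12 single-colour arrays in 4 groups of 3. The deposited values were log2 signals per probe set, summarised by the authors with RMA and the affy package per the submitters' processing notes. Their versions and the probe definition were not given in the sources used here. They ran from 2.456 to 14.33 and were used without further scaling or filter, after leaving out 64 control probe sets. Of the 22746 others, 13513 carried 1 gene in the annotation, 503 several and 8730 none. The number of arrays limits the precision.

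All 12 arrays entered 1 group-means model (R 4.3.3, limma 3.58.1 with lmFit and eBayes; residual degrees of freedom 8, prior 3.79), with two-sided tests and Benjamini-Hochberg adjustment over all 22746 probe sets in each of 7 comparisons (threshold 0.05). Differences are RNAi minus WT or zinc minus control. In each comparison the text names every gene past the threshold and the 3 highest and 3 lowest values, and also the 3 highest and lowest signals, the 3 widest spreads, the only member of a subfamily, and the genes of the wall lists, all 7 of which are given. Other genes named, among them those under an unadjusted 0.05 or with groups that do not overlap, TBL34 and TBL41, were chosen after their values were seen. The genes and lists were chosen with earlier results of these data known. Exact permutations of deviations used Python 3.11.15. The fits and permutations were tested on simulated data.

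Same-numbered arrays of RNAi and WT in control medium deviated together (r of 0.162, 0.289 and 0.484), which meets the condition for pairing (all over 0.1), whereas in zinc r was 0.338, 0.00912 and -0.0214. The pairing comes from the data, since no label states it. The main fit was therefore unpaired, and the replicate block was run as an alternative. Because the group mean of 3 arrays was removed, the 3 values of r are not independent and do not establish pairing. Between zinc and control r was -0.451 to -0.122 in WT and -0.0844 to 0.408 in RNAi. Replicates shared at most 0.0615% identical values. Alternatives were a replicate block, a fit on the compared arrays, a trended robust prior, renormalization by quantiles or medians, a filter on dim probe sets, leaving out each array and, added later, leaving out 3 arrays together.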

Additional observations from a re-analysis of the deposited data

How the results depend on the processing

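Of 42 named gene and comparison pairs, 777 of 794 alternative values kept their direction and their side of the threshold, 10 lost a call and 7 changed sign. The 10 were all TBL38 over both media, which ran from -0.56 to -0.44 with single arrays left out. With single arrays left out 24 of the 42 pairs moved by over 1.5 times in some setting. Of the sign changes, 5 came with single arrays left out: EXLA1 ran from -0.027 to 0.69 between lines with zinc, from -0.52 to 0.14 for zinc in WT and from -0.14 to 0.72 for zinc in RNAi, and EXPB1 from -0.028 to 0.50 for the interaction. With single arrays left out, the count of expansin and TBL genes past the threshold over both media was 0 to 1. It stayed at 0 in the other 6 comparisons under all alternatives run. Without the 3 arrays of high photosynthesis median (added after the data were seen) it was 0 over both media, TBL38 was at -0.39, and EXLA1 changed sign, to -0.033 between lines with zinc and -0.14 for zinc in RNAi. The counts of all probe sets were then 11 between lines in control medium, 2 with zinc and 63 over both media.

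The count of all probe sets between lines in control medium (5) was 3 with the replicate block over all 12 arrays, 8 with the block within the compared arrays (added after the data were seen), 3 with the compared arrays only, 11 with the trended robust prior and 3 without dim probe sets. With single arrays left out it was 1 to 20, with zinc 2 to 29, over both media 68 to 267, for zinc in WT 0 to 1 and for zinc over both lines 0 to 4. The replicate block gave 2 probe sets for zinc over both lines and changed the call of no named gene, and TBL38 had a limma adjusted p of 0.0331 with it over both media. With the interval of a zinc difference reaching past 0.5 in either direction in 11 genes within a line, smaller changes may have been missed. The choice between probe sets of a gene was not run because each gene had 1.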

Other observations

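The root hair expansins EXPA7 and EXPA18, which were not among the 38 genes, had lower mean signals with zinc without passing the threshold. EXPA7 averaged 7.79 ± 0.55 in RNAi with zinc and 8.23 ± 0.62 in RNAi in control medium, and 7.78 ± 0.32 in WT with zinc and 8.30 ± 0.25 in WT in control medium (SD, n = 3 each). The zinc difference over both lines was -0.48 (SE 0.22, limma adjusted p = 0.656) for EXPA7 and -0.46 (SE 0.25, limma adjusted p = 0.714) for EXPA18. Further expansins shared 2 probe sets that were annotated to more than 1 gene. The one for EXPA25 and EXPA23 averaged 4.28 in RNAi with zinc, 4.23 in RNAi in control medium, 4.18 in WT with zinc and 4.19 in WT in control medium, and the one for EXP26 and EXPA22 averaged 3.93, 4.02, 4.03 and 3.94 in the same order of groups.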
